A study of Mus musculus with 4 samples.

Results

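The genes described here are the zinc finger genes named Zfp and a number (some with a letter) on mouse chromosomes 7 and 13. They were chosen by symbol and chromosome alone, 120 genes of the 22691 in the deposited table, with 86 on chromosome 7 and 34 on chromosome 13. Values in both genotypes were listed for 119 of them, and Zfp934 had a value in MD1 only (-2.77). The study measured trimethylation of histone H3 at lysine 27 (H3K27me3) per gene by chromatin immunoprecipitation and sequencing (ChIP-seq) in embryonic fibroblasts, a primary culture of mesenchymal cells, from female C57BL6/J fetuses at stage E13.5. Wild-type cells (Smchd1 +/+, here WT) were set beside cells homozygous for the MD1 allele (Smchd1 MD1/MD1, here MD1), in which the chromatin protein SmcHD1 is deficient according to the design. Each genotype had 1 ChIP library, made with the mouse monoclonal antibody CMA323, and 1 input library without antibody. With no replicate, no difference between the genotypes could be tested, and how many fetuses or cultures each library pools is not stated in the labels. The values are log2 enrichments, so that 0 is the level at which the authors' ratio equals 1, and a difference of -1 (MD1 minus WT) is a 2-fold lower enrichment in MD1.

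Most Zfp genes encode proteins with repeated C2H2 zinc fingers, each a small zinc-holding fold that reads a few bases of DNA. Many of them also carry a KRAB box, which recruits the corepressor Trim28 and the H3K9 methyltransferase Setdb1, and such KRAB zinc finger proteins silence transposable elements and imprinted loci. The family has grown by local duplication, so that many members lie side by side in clusters. H3K27me3 is laid down by Polycomb repressive complex 2 and is usually low on transcribed genes and high on silent developmental genes.

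Values for the series as a whole bear on what follows in 3 ways. Over 19836 autosomal genes the median enrichment was -0.78 in WT, against -0.90 in MD1, and the median difference was -0.27. The MD1 values were more widely spread (slope of MD1 on WT 1.254), so genes with little mark were lower still in MD1 than in WT. For this reason each difference is also given relative to the median difference of 500 autosomal genes, those closest to it in mean level among genes of its quartile of length, and this is called the level-matched difference. The SD of the differences of those 500 genes is the yardstick for a single gene, and it ran from 0.22 at the long gene Zfp536 to 1.23 at the short gene Zfp36. The labelled cell type could be checked only through the mark, since expression was not measured. None of 12 fibroblast genes had a WT enrichment above 0, whereas all 6 epithelial genes, 4 of 5 neural genes, 2 of 4 blood genes and 2 of 4 endothelial genes did. Smchd1 itself stood at -2.44 in WT and -3.47 in MD1, which does not check the genotype. In bulk chromatin, less mark in every cell and the mark on fewer cells cannot be told apart.

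The zinc finger genes carried little H3K27me3 in either genotype. In WT the median of the 119 genes was -1.80, with quartiles of -2.24 and -1.38. In MD1 it was -2.63, with quartiles of -3.14 and -1.63. Ranked among autosomal genes, the first median was at percentile 32.6 and the second at percentile 29.5. An enrichment above 0 was found at 10 of 119 in WT (8.40%) and at 9 in MD1 (7.56%), against 35.6% and 34.2% of autosomal genes. The 225 genes with symbols of the same form on the other autosomes, 217 of them with values, were similarly low, with medians of -1.95 and -2.68.

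In MD1 cells 100 of the 119 genes had a lower enrichment than in WT and 19 a higher one. MD1 was above WT at 15.97% of them, against 32.4% of all genes compared. The median difference was -0.64 (quartiles -0.97 and -0.24), that of the same family on other autosomes was -0.60, and that of autosomal genes -0.27. Past the 2-fold limit, 27 genes (22.7%) were lower in MD1, close to the 20.3% of all genes. None was higher, against 2.38% of all genes, X-linked ones included, and 1.61% of autosomal genes. In the second shortest quartile of length, which held most of the list, 0.76% of autosomal genes were higher. The lower values matched those of other genes with as little mark: the median level-matched difference was 0.0052, and 61 of the 119 level-matched differences were positive. By that measure 2 genes, Zfp628 and Zfp738, were at least 2-fold lower and 4, Zfp524, Zfp526, Zfp566 and Zfp747, at least 2-fold higher, where 3.94% and 3.76% of all genes were. In the plot of MD1 against WT the members lie along the autosomal median.

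**Figure D1:**
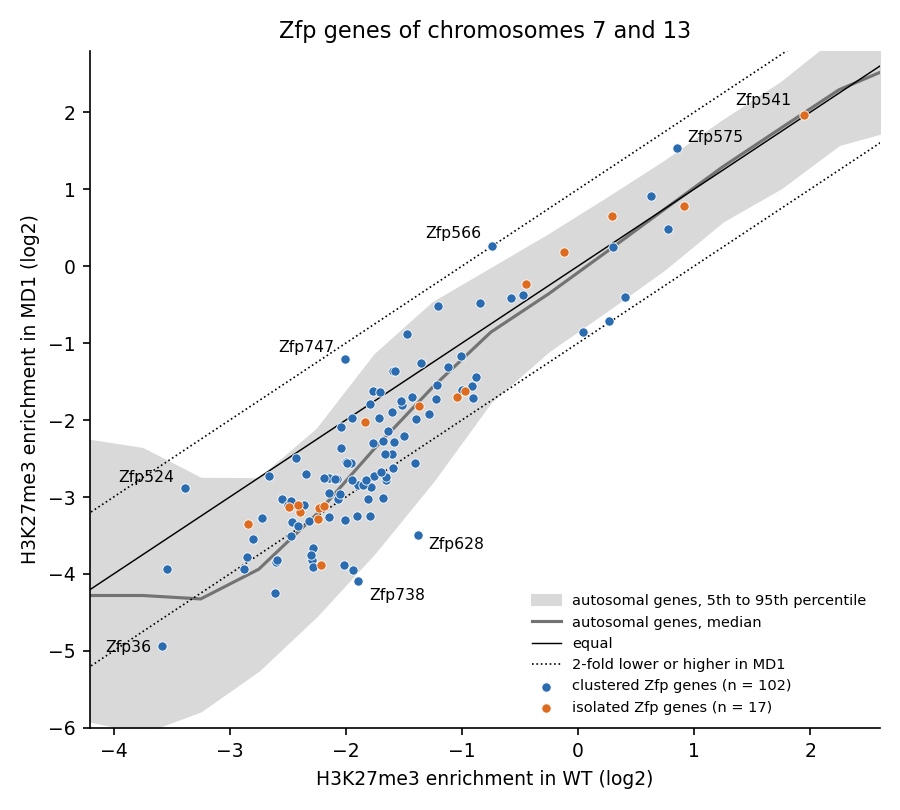
H3K27me3 enrichment in MD1 against WT (both log2) for the 102 clustered and 17 isolated Zfp genes with both values. The grey line and band are the median and the 5th to 95th percentile of autosomal genes in bins of WT enrichment; most Zfp genes sit low on both axes and inside the band.

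The genes were next divided by position. A gene was called clustered when another Zfp gene of the list lay within 500 kb on the same chromosome, and isolated otherwise. By this rule 103 genes were clustered, 102 with values, and 17 were isolated. The clusters numbered 14 and are called here by chromosome and letter in order along it, 7a to 7j and 13a to 13d. The division left a margin: the widest gap inside it was the 439 kb between Zfp389 and Zfp184 (cluster 13a) and the narrowest gap outside it the 769 kb between Zfp511 and Zfp941. Just inside the limit, Zfp389 went from 0.27 in WT to -0.71 in MD1 and Zfp184 from -1.70 to -1.63. Just outside it, Zfp511 went from -1.37 to -1.82 and Zfp941 from -1.04 to -1.70.

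Clustered and isolated genes had the same median difference to within the scatter of the genes. The median difference was -0.64 in both, with a gap between the medians of 0.00094, and the level-matched medians were 0.0030 and 0.042. The median WT enrichment was -1.80 for clustered and -1.84 for isolated genes, and the MD1 medians were -2.65 and -2.03. At least 2-fold lower in MD1 were 25 of 102 clustered genes (24.5%) and 2 of 17 isolated ones (11.8%), where 20.3% of all genes were. On chromosome 7 none of 11 isolated genes and 17 of 75 clustered ones passed the limit, and on chromosome 13 it was 2 of 6 and 8 of 27.

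Isolated genes had a wider spread of levels. The SD of WT enrichment over genes was 1.37 for isolated and 0.83 for clustered genes, and above 0 were 3 of 17 isolated and 7 of 102 clustered genes in WT. The sign of the comparison of levels differed between summaries. The clustered minus isolated difference in WT was 0.040 by medians and -0.45 by means. A lower limit on mean level, at the 25th percentile of all compared genes, gave -1.15. That limit selects on the level compared, keeping 69 of 102 clustered and 9 of 17 isolated genes. With it the gap in the median difference was -0.43. The gap by medians in WT was -0.75 on chromosome 7 and 0.37 on chromosome 13. Isolated genes were also longer (median 24.4 kb against 12.9 kb) and had more CG dinucleotides in their promoter windows (median 19 against 12.5). The part of these features in the result was not tested.

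**Figure D2:**
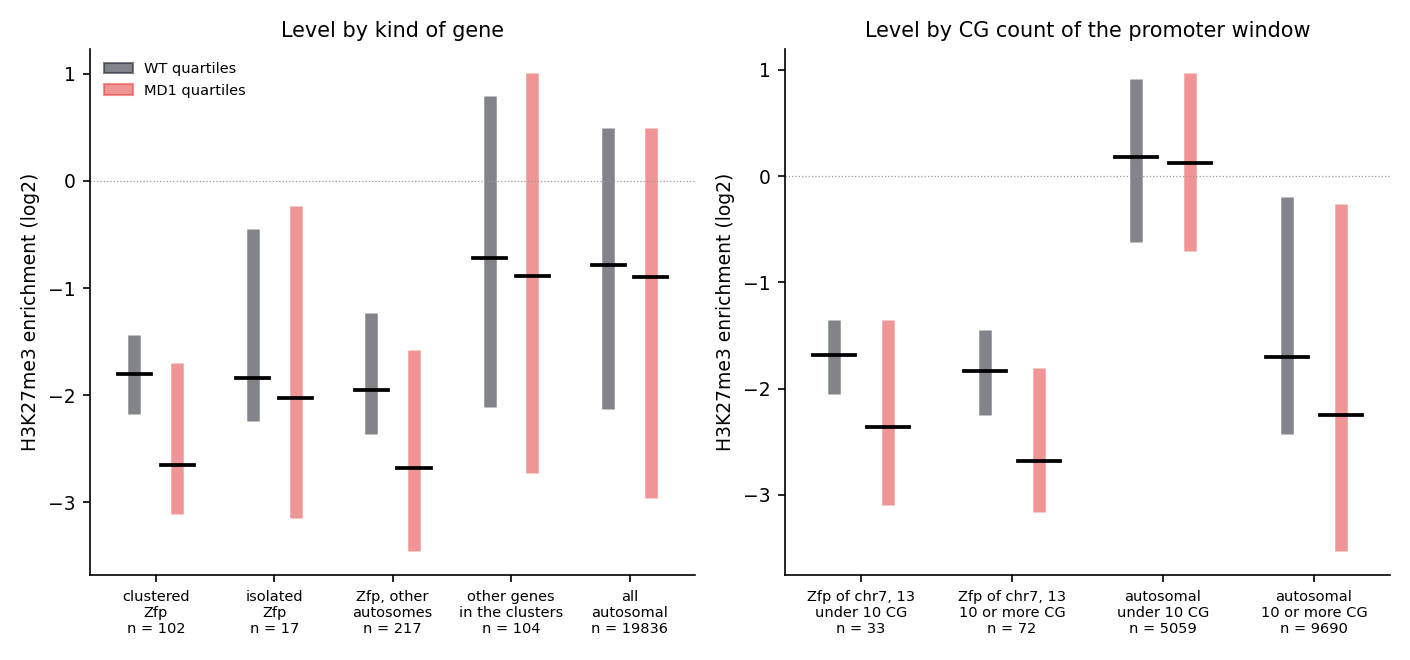
Quartiles (bars) and medians (lines) of H3K27me3 enrichment (log2) in WT and MD1, by kind of gene on the left and by the number of CG dinucleotides in the promoter window on the right. All 3 sets of Zfp genes lie below the other genes inside the clusters and below the autosomal genes, and Zfp genes with few and with many CG lie at like levels, whereas autosomal genes with few CG lie higher.

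The highest levels belonged to a few genes of both kinds. Zfp541, an isolated gene (mm9, as all gene positions here, chromosome 7, 16657291 to 16681677) that encodes a germ cell protein, had the highest enrichment, 1.94 in WT and 1.96 in MD1, at percentile 96.3 of autosomal genes in WT. Zfp536, an isolated gene for a neuronal transcription repressor, stood at 0.91 and 0.78. Zfp575 in cluster 7e went from 0.85 to 1.54, Zfp459 in cluster 13c from 0.77 to 0.48 and Zfp819 in cluster 7i from 0.63 to 0.92. Zfp366, an isolated gene active in dendritic cells, went from 0.29 to 0.65, the highest difference of any isolated gene (0.36). Of the 10 genes above 0 in WT, 7 were above 0 in MD1 as well. The ratios behind Zfp541 and Zfp536 were, in lowest terms, 967 to 259 and 2749 to 1507 in WT, so that the whole numbers behind them were large.

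Of the isolated genes the other high differences were at Zfp473, a histone mRNA processing factor gene (-0.12 to 0.18), Zfp296 (-0.45 to -0.24) and Zfp541 (difference 0.017). The lowest were at Zfp322a, from -2.21 to -3.88, Zfp367 (-2.24 to -3.28), Zfp346, which encodes a protein that binds double-stranded RNA (-2.18 to -3.11), and Zfp507 (-2.23 to -3.15). Only Zfp322a and Zfp367 of these passed the 2-fold limit, and none of the 17 isolated genes did so relative to genes of like level and length. The level-matched difference was -0.51 at Zfp322a and -0.046 at Zfp367, with yardsticks of 0.60 and 0.38.

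At the other end, 5 genes had the lowest WT enrichments, all of them clustered. Zfp36, the lowest, encodes tristetraprolin, an RNA-binding protein with fingers of another type, and the symbol rule includes it. It went from -3.58 to -4.94, Zfp526 from -3.54 to -3.94, Zfp524 from -3.38 to -2.88, Zfp146 from -2.88 to -3.94 and Zfp771 from -2.85 to -3.78. The MD1 ratios of Zfp36, Zfp526 and Zfp146 in lowest terms were 1 to 30, 1 to 15 and 1 to 15, so that the numbers behind them may be small but are not known. Relative to genes of like level, Zfp36, Zfp146, Zfp526 and Zfp771 turned from lower to higher, at 0.29, 0.28, 1.07 and 0.38. Their yardsticks were 1.23, 0.61, 1.16 and 0.61.

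Cluster 13c (chromosome 13, 67139530 to 67927937) was the largest, with 21 genes in 788 kb, all with values. Its medians were -1.70 in WT and -2.67 in MD1, and its median difference was -0.81, or -0.30 relative to genes of like level. Of the 21 genes 5 were at least 2-fold lower (Zfp708, Zfp87, Zfp748, Zfp738 and Zfp85), where 20.3% of all genes were. In MD1 3 were higher, by less than 2-fold, where 32.4% of all genes were higher, and the rest lay between. The lowest difference of all 119 genes was at Zfp738 (67768378 to 67784449), from -1.89 to -4.09, with ratios in lowest terms of 39 to 149 in WT and 3 to 50 in MD1. Its level-matched difference was -1.09 with a yardstick of 0.59. Zfp87 and Zfp748, the 2 Zfp genes before it, went from -2.02 to -3.89 and from -2.29 to -3.91. These 3 Zfp genes had the lowest MD1 values of the cluster. Between Zfp748 and Zfp738 lie AA987161 (-2.27 to -3.30) and A530054K11Rik (-2.89 to -3.04), which are outside the list. The highest difference of the cluster was 0.22 at Zfp759, from -1.58 to -1.36.

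Levels changed from gene to gene within cluster 13c. Zfp459 (67506650 to 67522354) was enriched in both genotypes (0.77 and 0.48), while the genes on its sides, Zfp429 and Zfp874a, stood at -2.04 and -1.86 in WT. Among the Zfp genes, Zfp457 stood at 0.41 in WT and -0.40 in MD1 between Zfp458 (-2.19 and -2.75) and Zfp595 (-1.59 and -2.29). F630042J09Rik, a gene outside the list that lies between Zfp458 and Zfp457, was enriched too (0.92 and 0.55). Zfp456 stood at -0.47 and -0.37. Over all 88 pairs of neighbouring clustered genes, the median gap in WT enrichment was 0.71, no smaller than the 0.65 over all pairs of clustered genes. The corresponding gap in the difference MD1 minus WT was 0.52 for neighbours and 0.58 for all pairs.

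**Figure D3:**
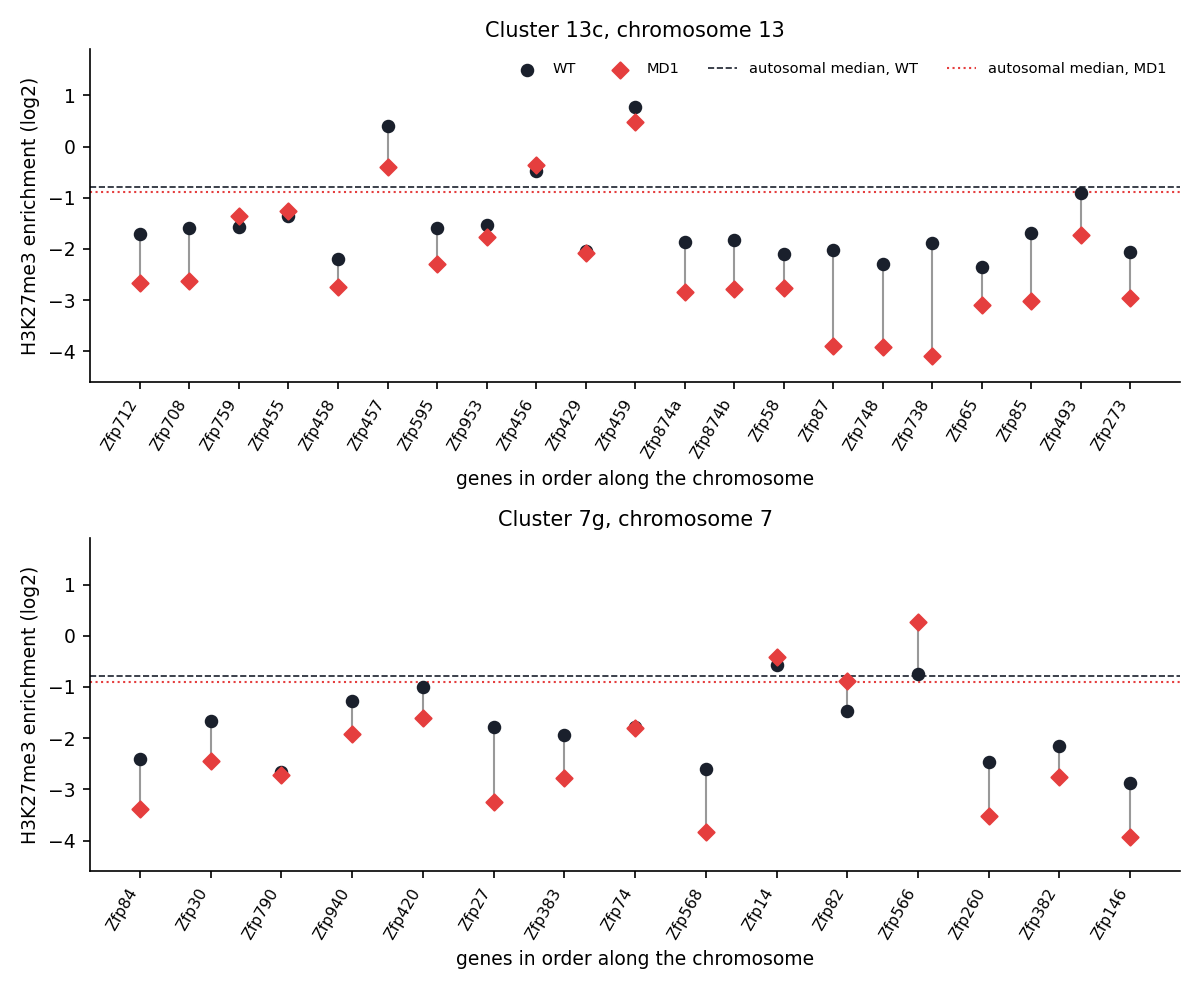
H3K27me3 enrichment (log2) in WT (circles) and MD1 (diamonds) of each Zfp gene of clusters 13c and 7g, in order along the chromosome. The autosomal medians are dashed and dotted lines, and other genes of the clusters are not drawn. Zfp457, Zfp456 and Zfp459 stand above the Zfp genes beside them in cluster 13c. The 3 adjacent genes Zfp14, Zfp82 and Zfp566 are the ones higher in MD1 in cluster 7g.

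The promoters of cluster 13c are in part near copies of each other, so that levels can be compared between like sequences. RefSeq promoter windows (GRCm38.p6, 250 bases before to 50 bases after a start) matched 105 of the 120 genes by symbol. A global alignment of the windows of 418 pairs within clusters gave a median identity of 53.3%, and 9 pairs reached 70%. The 250 bases before the start are printed for 2 such pairs with different levels, and for Zfp459, the most enriched Zfp gene of the cluster. Capitals mark the element GGGANNTGTAGT (ACTACANNTCCC on the other strand), which was picked after these windows had been read. Zfp456 is at chr13:67375764-67376013 (minus strand), Zfp429 at chr13:67399768-67400017 (minus), Zfp759 at chr13:67127978-67128227 (plus), Zfp457 at chr13:67306413-67306662 (minus) and Zfp459 at chr13:67421419-67421668 (minus), all in GRCm38.p6.
Zfp456: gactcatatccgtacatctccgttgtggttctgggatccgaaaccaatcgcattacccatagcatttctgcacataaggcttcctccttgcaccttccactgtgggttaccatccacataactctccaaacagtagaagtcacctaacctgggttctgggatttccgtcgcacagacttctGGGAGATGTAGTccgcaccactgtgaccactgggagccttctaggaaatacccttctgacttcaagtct
Zfp429: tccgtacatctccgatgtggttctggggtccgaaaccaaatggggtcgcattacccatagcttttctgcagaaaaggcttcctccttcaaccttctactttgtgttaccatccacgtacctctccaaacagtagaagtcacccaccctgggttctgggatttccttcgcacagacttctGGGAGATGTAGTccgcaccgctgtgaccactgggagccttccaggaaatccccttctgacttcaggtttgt
Zfp759: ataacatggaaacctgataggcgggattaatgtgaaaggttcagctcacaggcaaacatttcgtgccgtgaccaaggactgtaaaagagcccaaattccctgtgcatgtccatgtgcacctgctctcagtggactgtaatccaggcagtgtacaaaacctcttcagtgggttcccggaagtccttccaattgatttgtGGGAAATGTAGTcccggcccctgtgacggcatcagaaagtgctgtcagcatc
Zfp457: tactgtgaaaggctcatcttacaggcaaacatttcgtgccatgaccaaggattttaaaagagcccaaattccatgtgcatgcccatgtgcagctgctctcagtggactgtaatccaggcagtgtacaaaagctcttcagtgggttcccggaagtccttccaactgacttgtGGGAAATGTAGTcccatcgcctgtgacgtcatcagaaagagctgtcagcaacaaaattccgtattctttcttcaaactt
Zfp459: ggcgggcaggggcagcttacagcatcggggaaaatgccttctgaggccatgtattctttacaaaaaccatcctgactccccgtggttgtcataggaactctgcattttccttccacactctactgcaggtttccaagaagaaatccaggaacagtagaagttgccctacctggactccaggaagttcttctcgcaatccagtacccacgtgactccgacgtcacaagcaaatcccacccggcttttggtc

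The windows of Zfp456 and Zfp429, which are neighbours, were 89.7% identical, yet their WT enrichments were -0.47 and -2.04. Those of Zfp759 and Zfp457 were 82.7% identical, and the enrichments were -1.58 and 0.41. The 9 pairs held both large and small gaps. Zfp457 and Zfp738, with 73.3% identity, had the largest gap in WT, 2.30 (0.41 and -1.89). Zfp874a and Zfp874b, with 79.7% identity, stood at -1.86 and -1.83 in WT and differed by -0.98 and -0.95 in MD1. Zfp747 and Zfp764 in cluster 7j, with 88.3% identity, differed in WT level (-2.01 and -1.20), and both were higher in MD1 (by 0.81 and 0.69). The median WT gap was 0.37 over the 9 pairs and 0.56 over the 409 less alike. Whether the deposited values cover promoters or whole genes is not stated, and genes this similar can share reads, depending on how reads that map to several places were counted.

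The element was common in 3 of the clusters. Clusters 7e, 7g and 13c held 33 of the 40 clustered genes with it, and 7 of the 14 clusters held none, among them 7j (0 of 9 windows) and 7i (0 of 5). Cluster 13c was where it was noticed, so that the 17 of 19 genes there describe the choice. Outside that cluster it was found, on either strand, in the windows of 23 of 71 clustered genes (32.4%) and of none of 15 isolated ones, against 13 of 181 Zfp genes of the other autosomes (7.18%) and 397 of 15837 other autosomal genes (2.51%). Of all windows in the RefSeq table, 32851 in number, 1.81% held it. In cluster 7g it was found at 10 of 14 genes with a window, and in cluster 7e at 6 of 11. These letters also fit part of the element known to be bound by Zfp143, itself one of the isolated genes (-2.40 in WT and -3.20 in MD1), but no binding was measured here. Among the zinc finger genes of chromosomes 7 and 13 the level of the mark was alike with and without the element, with WT medians of -1.81 and -1.79 and MD1 medians of -2.70 and -2.56. Median differences were -0.69 and -0.61. Among other autosomal genes the WT medians were -2.01 with the element and -0.78 without, and the MD1 medians -2.62 and -0.88. Most genes with the element had 10 or more CG dinucleotides in the window. Among all such autosomal genes the WT medians were -2.02 with it (390 genes) and -1.68 without. With fewer than 10 CG they were -1.43 (52 genes, 17 of them zinc finger genes of chromosomes 7 and 13) and 0.19. The part of CG content in this gap was not tested.

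**Figure D4:**
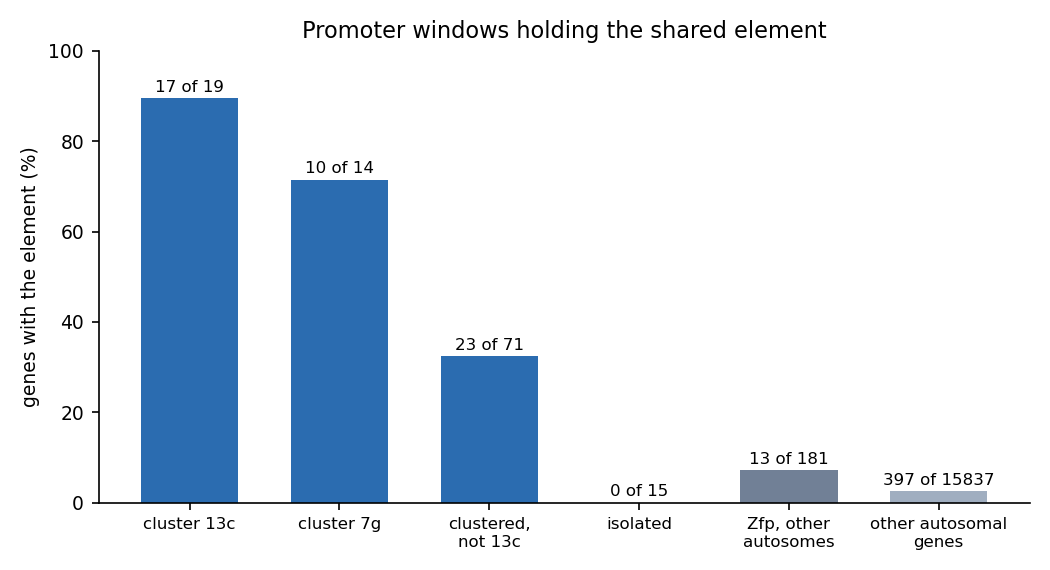
Percentage of genes whose RefSeq promoter window of 300 bases holds the element on either strand, with the number of genes above each bar. The element was picked from cluster 13c (17 of 19); clustered Zfp genes outside it hold it at 23 of 71, isolated ones at 0 of 15 and other autosomal genes at 397 of 15837.

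The CG content of the promoter window, which goes with H3K27me3 over autosomal genes, did so little among the zinc finger genes. Autosomal genes with fewer than 10 CG dinucleotides in the window had a median WT enrichment of 0.18, and those with 10 or more a median of -1.70, a gap of 1.88. Among the zinc finger genes these medians were -1.68 (33 genes) and -1.83 (72 genes), a gap of 0.15. In MD1 the gaps were 2.37 and 0.32. The zinc finger genes with few CG were below other genes with few CG in both genotypes. Across genes, which share the libraries and are not replicates, the rank correlation of CG count with WT enrichment was -0.17 for 105 zinc finger genes and -0.41 for 14749 autosomal genes. The windows follow a newer build and annotation than the enrichment table, so some starts may not be those the authors used.

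Cluster 7g (chromosome 7, 30553571 to 30954746), with 15 genes in 401 kb, held no other valued gene inside it and had the highest difference of the list. Its medians were -1.79 in WT and -2.73 in MD1, and the median difference was -0.63, or 0.076 relative to genes of like level. The 3 adjacent genes Zfp14, Zfp82 and Zfp566 were all higher in MD1. Zfp566 (30862356 to 30875529) went from -0.74 to 0.26, a difference of 0.99997 that is just under the limit, with ratios in lowest terms of 101 to 174 and 192 to 157. Its level-matched difference of 1.07 compares with a yardstick of 0.44. Zfp82 went from -1.47 to -0.88 and Zfp14 from -0.58 to -0.41. A value at least 2-fold lower was found at 4 of the 15 genes of the cluster, where 20.3% of all genes had one. The lowest difference was at Zfp27, from -1.79 to -3.25. Also lower was Zfp568, whose protein represses a placental transcript of Igf2, from -2.60 to -3.82, with a level-matched difference of 0.011.

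Cluster 7j (chromosome 7, 134376957 to 135029510) showed both directions within 653 kb. Zfp768, Zfp747 and Zfp764, which follow each other among the Zfp genes, were higher in MD1, by 0.15, 0.81 and 0.69. Between Zfp747 and Zfp764 lie genes outside the list, 9130019O22Rik (0.41 to -0.73) and E430018J23Rik (-1.68 to -1.62). Zfp747 went from -2.01 to -1.20 and Zfp764 from -1.20 to -0.52. Both are short genes, with yardsticks of 0.95 and 0.83 and MD1 ratios of 4 to 9 and 5 to 7 in lowest terms. At the end of the cluster Zfp668 went from -2.61 to -4.24 and Zfp646 from -2.28 to -3.66. The level-matched median of the 10 genes was 0.40. Of the 102 clustered genes with values, 15 (14.7%) were higher in MD1, against 32.4% of all genes compared. Of these 15 genes, 8 came next to another such gene when only Zfp genes are counted and other genes are skipped. At least one was held by 8 of the 14 clusters, and nothing is read from these counts.

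Cluster 7a (4866819 to 5005325) had the widest range of differences, from -2.11 to 0.50, in 6 genes. Zfp628 went from -1.38 to -3.49, a difference of -2.11 and of -1.43 relative to genes of like level, but its MD1 ratio was 1 to 11 in lowest terms and the yardstick 0.95. Zfp524 in the same cluster had a difference of 0.50, or 1.67 level-matched, with a yardstick of 1.13. Zfp784 went from -1.66 to -2.78 and Zfp580 from 0.043 to -0.85. The level-matched median of its 6 genes was -0.59.

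**Figure D5:**
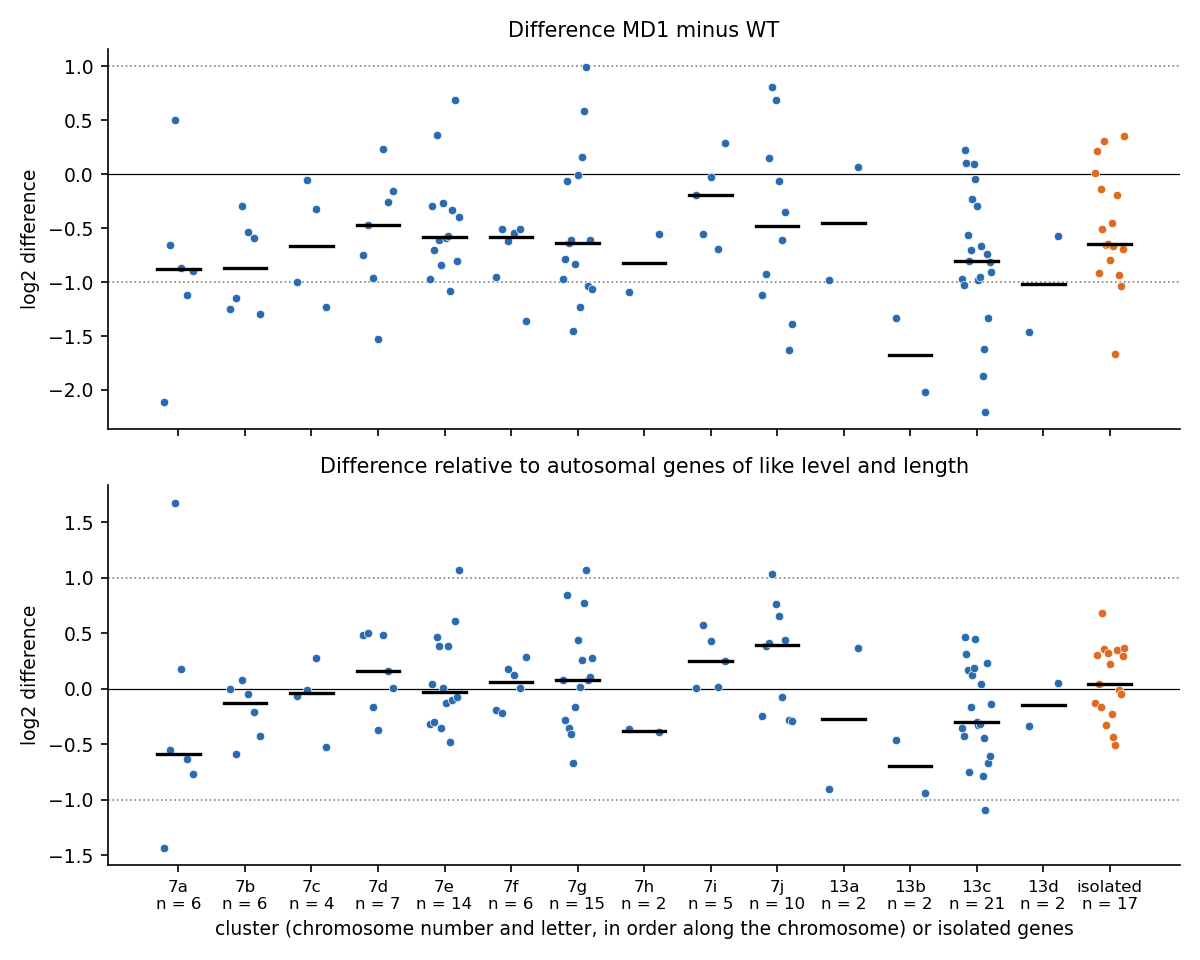
Difference MD1 minus WT (log2) of each gene by cluster and for the isolated genes, as measured (top) and level-matched (bottom), with black lines at the medians and dotted lines at the 2-fold limits. In the top panel every median is below 0, and in the bottom panel the medians lie on both sides of 0, from -0.70 in 13b to 0.40 in 7j.

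In the other clusters with at least 4 values, the lowest differences were at Zfp28 in 7b (-2.004 to -3.30), Zfp772 in 7c (-1.80 to -3.03), Zfp110 in 7d (-2.29 to -3.82), Zfp94 in 7e (-1.66 to -2.74) and Zfp719 in 7i (-2.07 to -2.76). The highest were at Zfp667 in 7b (-1.51 to -1.81), Zfp773 in 7c (0.30 to 0.25), Zfp128 in 7d (-1.59 to -1.36), Zfp59 in 7f (-1.22 to -1.73) and Zfp819 in 7i. No level-matched difference of these 10 genes reached the 2-fold limit. Among genes at or above the list's median mean level, further low differences were at Zfp444 (-1.41 to -2.55), Zfp708 (-1.60 to -2.63) and Zfp712 (-1.70 to -2.67), and a further high one at Zfp114 (-0.84 to -0.48). The small cluster 13b had the lowest median, with Zfp808 from -1.90 to -3.24 and Zfp935 from -1.94 to -3.95. In all, 12 of the 14 clusters held a gene at least 2-fold lower in MD1, from which nothing is read, since 20.3% of all genes were. Of the Zfp genes of chromosomes 7 and 13 named here, Zfp575, Zfp646, Zfp708, Zfp85, Zfp507 and Zfp511 overlap another gene of the table. How reads in the overlap were assigned is not known, and overlaps of the other genes named are not listed.

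Other genes within the clusters, over all clusters, had higher H3K27me3 than the zinc finger genes. The 104 other genes with values that lie inside the clusters had a WT median of -0.72 and an MD1 median of -0.89, close to the autosomal medians, and 39.4% were above 0 in WT against 6.86% of the clustered zinc finger genes. Of the 9 clusters with at least 3 such genes, the other genes had the higher WT median in 8. The exception was 13a. The gap was widest in cluster 7e (chromosome 7, 24866916 to 26012524), at 0.92 for 30 other genes against -1.63 for 14 zinc finger genes. It was small in cluster 7j, at -2.16 against -2.21, and in cluster 13c, at -1.68 against -1.70. The largest differences among these other genes were at Rps19, a ribosomal protein gene (-3.03 to -6.24), Sephs2 (-2.34 to -5.24), Prr14 (-2.67 to -5.22) and the histone gene Hist1h2bp (-2.49 to -4.79). MD1 ratios reduced to 1 over 74 at Rps19 and 1 over 37 at Sephs2. At Prr14 and Hist1h2bp they reduced to 2 over 73 and 1 over 27. Few reads may lie behind such values, though the depth is unknown. Level-matched, the differences were -1.58, -1.45, -1.05 and -0.93, beside yardsticks of 1.23, 1.17, 1.17 and 1.17.

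The genes of the factors that work with KRAB zinc finger proteins had even less of the mark. All 26 genes of this list had a lower enrichment in MD1, 18 of them (69.2%, against 20.3% of all genes) at least 2-fold. Their median was -2.55 in WT, and in MD1 it was -3.58. Relative to genes of like level and length the median difference was -0.099. By that measure 3 of the 26 were lower past the limit, where 3.94% of all genes were. Those were Daxx, a histone chaperone gene (-2.66 to -6.03), and the X-linked genes Suv39h1, for an H3K9 methyltransferase (-0.46 to -2.59), and Atrx, for a chromatin remodeller (0.96 to -0.55). The level-matched differences were -1.72, -1.87 and -1.44, with yardsticks of 1.24, 0.52 and 0.25. The ratios of Daxx in lowest terms were 2 to 13 in WT and 1 to 64 in MD1, so that the numbers behind them may be small but are not known. Trim28 went from -2.91 to -4.37 and Setdb1 from -2.37 to -4.33. The heterochromatin protein genes Cbx3 and Cbx1 went from -2.70 to -4.95 and from -2.87 to -4.91. Zfp57 and Zfp809, KRAB zinc finger genes outside these chromosomes that act on imprinted loci and on retroviruses, went from -1.66 to -1.85 and from -2.44 to -2.85. On the other autosomes the largest differences of the zinc finger family were at Zfp513 (-2.70 to -5.76), Zfp207 (-2.77 to -5.13), Zfp263 (-2.10 to -4.32) and Zfp622 (-2.48 to -4.70).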

How the data were processed

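H3K27me3 ChIP and input libraries of WT and MD1 fibroblasts (4 samples, 1 of each kind) are summarised in a single deposited list of genes. Per the file headers its 2 value columns are H3K27me3 enrichments, and the deposited values lie on a log2 scale. The build is mm9 per the submitters' processing notes. Nothing in the sources used here names the aligner, read counting, filters or denominator. Nearly all deposited log2 values (99.98% in WT and 99.95% in MD1, relative tolerance 1e-12) equalled a constant (0.043 in WT, -0.032 in MD1) plus the log2 of 1 whole number over another, both at most 20000. Such ratios are known in lowest terms only, so depth is unknown and no counting interval is given. Coordinates of genes are mm9, counted from 1.

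Computed here were differences, level-matched differences (500 genes), counts past 2-fold over 20606 genes with both values, clusters (gap of at most 500 kb), and features of RefSeq promoter windows (for genes with several, the one with the most CG). Python 3.11.15, pandas 2.3.3 and Biopython 1.88 were used, and the steps were tested on simulated data. No test between genotypes was run. Alternatives were pseudocounts, centring, a limit on mean level, other fold and distance limits, each chromosome alone, leaving out overlapping genes, and other CG limits. Named genes follow a rule: the lowest and highest difference in each cluster with at least 4 values, the 6 lowest and 6 highest among genes in the upper part of the list by mean level (from its median up), the 5 highest and 5 lowest WT values, the 4 highest and 4 lowest isolated genes, up to 4 per comparison list, the genes beside the 500 kb limit, and Smchd1. Marker genes are given as counts, and other genes named were picked after their values were seen. Members, lists and rules were chosen with earlier results of these data known.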

Additional observations from a re-analysis of the deposited data

How the results depend on the processing

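With 1 library of each kind, no value has a replicate error, the read depth is unknown, and values of short genes with little mark are the least certain. Of the 27 genes at least 2-fold lower in MD1, 10 had an MD1 ratio with a numerator of 5 or less in lowest terms. No paired analysis was possible because each genotype has 1 ChIP library. The median difference over the zinc finger genes (-0.64) was -0.11 after adding 1 to the linear ratio, -0.37 when centred on the autosomal median, -0.82 on chromosome 13 alone, and 0.0052 for the level-matched difference, which turned its sign. The cause of that turn is the construction of the measure, which takes off the median difference of genes of like level. The number at least 2-fold lower (27) was 0 with a pseudocount of 1, 15 when centred and 2 level-matched. It was 8 with a lower limit on mean level at the 25th percentile of all compared genes. On chromosome 7 it was 17 and on chromosome 13 it was 10. At a limit of 1.5-fold the number was 68, and at 3-fold it was 7. The number at least 2-fold higher (0) was 2 when centred, 4 level-matched and 4 at 1.5-fold. The clustered minus isolated gaps moved beyond the scatter over genes only with the filter on mean level, to -1.15 for WT enrichment and -0.43 for the difference, a filter that selects on the level compared, and not with neighbours within 250 kb or 1 Mb, with distances between starts, or with overlapping genes left out. A limit of 5 CG, chosen after seeing the data, gave an autosomal gap of 1.54. Level-matched, 5 of the 27 genes at least 2-fold lower turned sign. Of the 77 genes named by rule these were Zfp36 (0.29) and Zfp146 (0.28), and Smchd1 (0.033) turned too.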

Other observations

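The other genes inside the clusters showed both very high and very low levels within short distances of zinc finger genes. In cluster 7e, Lypd3 and Lypd5, which encode surface proteins of the Ly6 family, went from 2.42 to 2.85 and from 2.28 to 2.05, the germ cell genes Dmrtc2 and Tex101 from 2.42 to 1.92 and from 1.76 to 1.55. In cluster 7f the Notch ligand gene Dll3 stood at 2.38 in WT and 2.40 in MD1, while the ribosomal protein gene Rps16 stood at -4.96 and -4.49. The choice of these genes was made with their values in view.

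Some genes of the same family carry other names and so fall outside the symbol rule. In cluster 13c, Rsl1, a KRAB zinc finger gene known to regulate sex-limited liver genes, stood at -2.16 in WT and -2.17 in MD1, and Rslcan18 at -1.19 and -1.52. In cluster 7d, Zscan22 went from -2.04 to -4.24 and Zscan18 from -1.14 to -1.35, and in cluster 7b Zscan5b went from 0.78 to 0.36.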
